A study of Mus musculus with 9 samples.

Results

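The RNA interference machinery of mouse cells was followed here through 10 genes, taken as the rows of the deposited FPKM table whose Ensembl identifier carries the symbol Drosha, Dgcr8, Xpo5, Dicer1, Tarbp2, Ago1, Ago2, Ago3, Tnrc6a or Tnrc6b in GENCODE M21. All 10 were found among the 28137 identifiers of the table. MicroRNAs are cut out of long primary transcripts in the nucleus by Drosha and its partner Dgcr8, carried to the cytoplasm by the export receptor Xpo5, and cut again by Dicer1 with its partner Tarbp2. The short RNA is then held by an Argonaute protein (Ago), which finds matching messenger RNAs, and GW182 proteins of the Tnrc6 family recruit the enzymes that remove their tails and caps. A transfected siRNA, as used in every group of this study, is made short already and enters at the Argonaute step.

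The samples were RAW264.7 cells, an established mouse macrophage line, in 3 groups of 3 RNA-seq libraries: NC siRNA (a non-targeting control), SFRP2 siRNA and RAB6A siRNA. By the labels, every group received 60 nM siRNA for 6 h, complete medium for 12 h and LPS (bacterial lipopolysaccharide) at 100 ng/ml for 24 h, so that no library comes from untransfected or unstimulated cells. The study's methods differ from the labels in the siRNA dose and the recovery time and add IFN-γ. The labels do not say whether the 3 libraries of a group come from separate cultures, and the p-values then measure the spread between these libraries, which may be technical.

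Depth was read from the steps of the FPKM values and lay between 32758729 and 47149258 reads per library. It was highest in the NC siRNA group (median 42515253) and lower in the SFRP2 siRNA (median 38883870) and RAB6A siRNA groups (median 36344965). Of the targeted genes, Sfrp2 had 2 to 4 reads in each library and gives no check of the labels. Rab6a, a small GTPase of the Golgi, had an FPKM of 25.7 ± 1.48 (SD, n = 3) with NC siRNA and 20.7 ± 0.445 (SD, n = 3) with RAB6A siRNA. Its log2 fold change was -0.31 (limma, adjusted p = 0.00240). In that comparison 36.5% of 12712 genes were called lower, so that this fall is a weak check of the labels. All 9 macrophage markers and all 6 LPS response markers were above the filter in each group, with summed macrophage FPKM of 4582 to 5050 (NC siRNA), 4054 to 4383 (SFRP2 siRNA) and 3979 to 4142 (RAB6A siRNA). The summed FPKM of the fibroblast markers was 1.13 to 2.10, 1.47 to 2.23 and 1.73 to 2.90 in the same order. Of the macrophage markers, 4 fell and 1 rose with RAB6A siRNA against NC siRNA (limma). The LPS response markers had 3 that fell and 2 that rose (limma), where 74.1% of all genes were called. The macrophage sum rests mostly on Cd68 and Cd14, with means of 1850 and 1679 with NC siRNA and 1682 and 1943 with RAB6A siRNA. Among the macrophage markers that fell were Lyz2 (mean FPKM 872 with NC siRNA and 214 with RAB6A siRNA), Csf1r (73.6 and 27.0) and Spi1 (130 and 62.9). Of 3 fibroblast markers tested, Col1a2 and Dcn were called higher, at a mean FPKM of 0.825 and 0.701 with RAB6A siRNA against 0.310 and 0.348 with NC siRNA, and the only endothelial marker tested, Pecam1, was also called higher (0.830 against 0.475). Col1a2, Dcn and Pecam1 passed the filter of 0.5 FPKM only through the RAB6A siRNA group. Col1a1, the other fibroblast marker tested, was not called (0.644 with NC siRNA and 0.542 with RAB6A siRNA). The endothelial marker Cdh5 was under the filter and went the other way, from 0.380 with NC siRNA to 0.152 with RAB6A siRNA. The part of these shifts in the results of the members was not tested. Epithelial, endothelial, T cell, B cell and neutrophil markers summed to at most 1.15 in any library. In bulk RNA, fewer cells expressing a gene and less RNA of it per cell cannot be told apart.

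The loading of the transfected siRNAs was not measured. The study lists 3 siRNAs against SFRP2 and 1 control, without stating the experiment in which each was used. Their guide strands are shown because the bases 2 to 8, the seed, can pair with many other transcripts. They are given below 5′ to 3′ without the overhang, with the seed in capitals.
NC siRNA: aCGUGACAcguucggagaa
SFRP2 siRNA-1: uUCAUGACcagcggaaucc
SFRP2 siRNA-2: uUGUCGUCcucauucuugg
SFRP2 siRNA-3: aUCUUGGUgucucuguuga
The sequence of the RAB6A siRNA was not used here. The SFRP2 siRNA libraries are titled siRNA-1 to siRNA-3, like the listed siRNAs, but the libraries of the other groups are numbered likewise. It is not stated whether each SFRP2 siRNA library received a different siRNA of the 3. They were treated as replicates, and their spread would include any difference between siRNAs. The complement of the seed was searched in the longest protein-coding transcript of each gene in GENCODE M21, on the transcript strand. It occurred in 1 of 10 members for the NC siRNA (Drosha), against 7.76% of 10035 genes tested. For siRNA-1 (GTCATGA) it occurred in 6 of 10 members against 16.7% of genes, for siRNA-2 (GACGACA) in 3 of 10 against 10.5%, and for siRNA-3 (ACCAAGA) in 7 of 10 against 31.7%. The members have long transcripts, with a median of 7705 bases against 3054 for all these genes, and a longer transcript holds more matches of any kind. A match is a description of the letters and not a site of action.

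In the NC siRNA group the mean FPKM of the 10 genes ran from 1.75 to 25.5. FPKM is scaled to gene length, here that of all annotated exons of a gene together (5935 bases for Drosha and 23677 for Tnrc6b). A gene expressed in a shorter form is understated, so the order between genes also depends on this length. Drosha was the highest at 25.5 ± 0.881 (SD, n = 3), followed by Xpo5 at 17.7 ± 0.112 and Ago2 at 17.4 ± 0.279, whose ranges overlapped. Then came Tnrc6a at 11.4 ± 0.271, Ago1 at 8.47 ± 0.190 and Dicer1 at 5.18 ± 0.199, each apart from its neighbours. Tarbp2 at 4.40 ± 0.442 and Dgcr8 at 4.24 ± 0.262 overlapped, as did Ago3 at 1.95 ± 0.107 and Tnrc6b at 1.75 ± 0.123 at the lower end. Every member passed the filter of a mean FPKM of at least 0.5 in each comparison, and the lowest value of a member rested on 224 reads (Dgcr8 in a RAB6A siRNA library). The plot of FPKM by library shows this order and the shifts described in the following paragraphs.

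**Figure D1:**
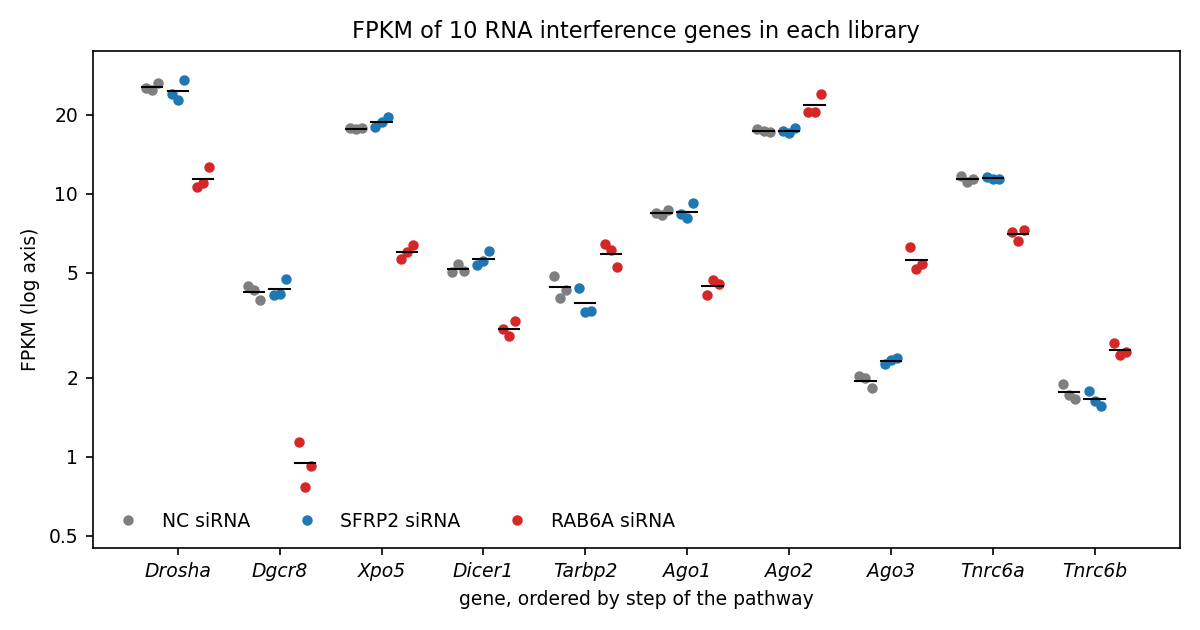
FPKM of the 10 genes (log axis) in each of the 9 libraries, in the order in which the proteins act. Points are libraries, coloured by group, and black lines are group means. The points for NC siRNA and SFRP2 siRNA lie close together, while those for RAB6A siRNA lie lower for Drosha, Dgcr8, Xpo5, Dicer1, Ago1 and Tnrc6a and higher for Tarbp2, Ago2, Ago3 and Tnrc6b.

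With RAB6A siRNA, 6 of the 10 genes fell and 4 rose against NC siRNA (limma on log2(FPKM + 0.1), adjusted p under 0.05). The genes of the nuclear steps fell most, Ago1, Dicer1 and Tnrc6a fell less, and Ago3 rose most. This comparison moved most of the transcriptome: 74.1% of 12712 genes tested were called, 37.6% higher and 36.5% lower, so that 10 of 10 members called is read against a high background. Past an absolute log2 fold change of 1, the size at which the study's methods call a DEG (differentially expressed gene), were 4 members, Ago3 upward and Drosha, Dgcr8 and Xpo5 downward. Over all genes, 30.1% were DEGs, 17.3% higher and 12.8% lower. The groups did not overlap for any member, against 77.4% of all genes. The median log2 fold change of the members was -0.71 and that of all genes 0.03. For single genes, exact two-sided permutation tests of FPKM gave p = 0.1 for each of the 10, the smallest p that 3 libraries against 3 allow.

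Drosha, the nuclease of the Microprocessor that makes the first cut, had FPKM of 25.3, 24.7 and 26.5 with NC siRNA, 24.0, 22.8 and 27.1 with SFRP2 siRNA and 10.6, 11.03 and 12.6 with RAB6A siRNA. All 3 RAB6A siRNA libraries lay below every other library. Its log2 fold change against NC siRNA was -1.16 (SE 0.08, limma adjusted p = 9.94e-06). Dgcr8, the RNA-binding partner of Drosha, had FPKM of 4.46, 4.30 and 3.95 with NC siRNA, 4.13, 4.15 and 4.73 with SFRP2 siRNA and 1.14, 0.769 and 0.920 with RAB6A siRNA. It fell by 2.07 on the log2 scale (SE 0.14, limma adjusted p = 1.17e-05), and 256 of the 12712 genes tested had a lower value. The exons of Dgcr8 share 825 bases, 10.7% of its exonic length, with Trmt2a on the opposite strand, and 327 bases with Gm49776. The use of strand in counting is not given in the sources used here, and Trmt2a also fell, with a log2 fold change of -1.11 (limma adjusted p = 9.60e-06). Reads of Dgcr8 and Trmt2a in the shared bases cannot be told apart.

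Dgcr8 fell further than its partner, and the ratio of Drosha to Dgcr8 FPKM was 6.04 ± 0.572 (SD, n = 3) with NC siRNA, 5.68 ± 0.176 with SFRP2 siRNA and 12.5 ± 2.76 with RAB6A siRNA. The 3 RAB6A siRNA ratios, from 9.29 to 14.3, did not overlap those of the other libraries, which reached 6.70. Xpo5, the export receptor for the precursor hairpins, had FPKM of 17.8, 17.6 and 17.8 with NC siRNA, 17.97, 18.7 and 19.7 with SFRP2 siRNA and 5.66, 5.98 and 6.36 with RAB6A siRNA. It fell by 1.55 on the log2 scale (SE 0.06, limma adjusted p = 1.67e-06). Lower values than that of Xpo5 were found for 674 of the 12712 genes.

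Dgcr8 is also the host of a microRNA. The hairpin of Mir1306 (chr16:18284239-18284317, GRCm38, minus strand) lies within the coding sequence of exon 2 of the Dgcr8 transcript ENSMUST00000009321.10. Its mature product is shown with the seed in capitals, since this transcript is both a messenger RNA for the Microprocessor and a substrate of it.
mmu-miR-1306-3p: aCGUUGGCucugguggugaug
The level of the microRNA itself was not measured, as the libraries hold long RNA counted per gene.

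The promoter stretches of Drosha and Dgcr8, which fell together, are shown beside those of Xpo5, which also fell, and Ago3, which rose. They are taken from the 250 bases before the RefSeq start and cut where the GENCODE M21 gene begins. Capitals mark CCAAT or its complement ATTGG, the box bound by the factor NF-Y.
Drosha (GRCm38.p6, chr15:12824565-12824814, + strand): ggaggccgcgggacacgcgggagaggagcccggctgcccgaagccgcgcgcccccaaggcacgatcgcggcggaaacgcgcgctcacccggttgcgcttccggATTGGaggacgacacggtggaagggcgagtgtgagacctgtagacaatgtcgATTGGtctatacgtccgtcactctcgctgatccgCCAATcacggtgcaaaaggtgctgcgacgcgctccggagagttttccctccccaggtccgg
Dgcr8 (GRCm38.p6, chr16:18289247-18289418, - strand): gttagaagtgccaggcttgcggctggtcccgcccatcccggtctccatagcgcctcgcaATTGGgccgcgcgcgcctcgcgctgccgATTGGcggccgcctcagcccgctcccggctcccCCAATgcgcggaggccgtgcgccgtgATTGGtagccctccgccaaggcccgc
Xpo5 (GRCm38.p6, chr17:46202561-46202781, + strand): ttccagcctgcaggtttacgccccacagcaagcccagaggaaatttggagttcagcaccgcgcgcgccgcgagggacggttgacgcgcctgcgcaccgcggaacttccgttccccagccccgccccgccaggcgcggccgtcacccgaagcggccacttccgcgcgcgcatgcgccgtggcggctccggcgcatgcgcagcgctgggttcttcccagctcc
Ago3 (GRCm38.p6, chr4:126429557-126429792, - strand): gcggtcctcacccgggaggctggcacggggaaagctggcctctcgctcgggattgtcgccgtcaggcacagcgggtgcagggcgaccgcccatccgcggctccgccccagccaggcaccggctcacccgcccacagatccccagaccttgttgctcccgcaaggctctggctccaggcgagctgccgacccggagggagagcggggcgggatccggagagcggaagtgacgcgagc
The stretch of Dgcr8 holds 4 such boxes and that of Drosha 3, while those of Xpo5 and Ago3 hold 0. RefSeq promoters were matched for 9 of 10 members. In their 250 bases upstream, CCAAT on either strand was found in 6 of 9 members and in 34.5% of 27025 promoters. Of the members without a box, Xpo5 and Tnrc6a fell and Ago3 rose. Of those with a box, Drosha, Dgcr8, Ago1 (1 box) and Dicer1 (1 box) fell. Tarbp2 (3 boxes) and Tnrc6b (4 boxes) rose. A link between the box and the direction was not tested. The GC box GGGCGG was found in 7 of 9 members against 33.0% of promoters, the E box CACGTG in 0 of 9 against 6.04%, and TATAAA in 0 of 9 against 13.0%, each on both strands. The 250 bases of the matched members held from 9 (Tnrc6a) to 39 (Dicer1) CG pairs, against a median of 6 over all promoters. A stretch rich in G and C holds more words of these letters, and the part of this in the counts was not tested.

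Dicer1, which cuts the hairpin into a short duplex, had FPKM of 5.03, 5.40 and 5.10 with NC siRNA, 5.38, 5.57 and 6.05 with SFRP2 siRNA and 3.06, 2.88 and 3.27 with RAB6A siRNA. It fell by 0.74 on the log2 scale (SE 0.08, limma adjusted p = 9.14e-05). Tarbp2, the double-stranded RNA-binding partner of Dicer1, had FPKM of 4.88, 4.01 and 4.32 with NC siRNA, 4.40, 3.55 and 3.58 with SFRP2 siRNA and 6.44, 6.09 and 5.25 with RAB6A siRNA. It rose by 0.42 (SE 0.11, limma adjusted p = 0.00810), and its RAB6A siRNA libraries lay above all others. The partners thus moved in opposite directions, and the ratio of Dicer1 to Tarbp2 FPKM was 1.19 ± 0.159 (SD, n = 3) with NC siRNA, 1.49 ± 0.242 with SFRP2 siRNA and 0.524 ± 0.0863 with RAB6A siRNA.

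Ago2, the Argonaute whose slicing activity siRNA silencing depends on, had FPKM of 17.7, 17.3 and 17.2 with NC siRNA, 17.3, 16.99 and 17.8 with SFRP2 siRNA and 20.5, 20.5 and 24.1 with RAB6A siRNA. The third RAB6A siRNA library was the highest. Ago2 rose by 0.31 on the log2 scale (SE 0.07, limma adjusted p = 0.00591), the smallest change among the members. The FPKM values of a library sum to 399883 to 410877 with RAB6A siRNA and to 361817 to 372307 with NC siRNA. When all libraries were scaled to the same sum, an alternative chosen after seeing the data, the log2 fold change of Ago2 was 0.17 (limma adjusted p = 0.105) and the call was lost. That scaling moved the median of all genes from 0.03 to -0.12. Tarbp2 was then at 0.28 (limma adjusted p = 0.0468) and Tnrc6b at 0.38 (limma adjusted p = 0.0125). Ago2 also shares 219 exonic bases, 1.56% of its exonic length, with Chrac1 on the opposite strand.

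Ago1, an Argonaute that represses without slicing, had FPKM of 8.47, 8.28 and 8.66 with NC siRNA, 8.39, 8.08 and 9.20 with SFRP2 siRNA and 4.12, 4.69 and 4.52 with RAB6A siRNA. It fell by 0.92 on the log2 scale (SE 0.07, limma adjusted p = 1.90e-05). Ago3 had FPKM of 2.02, 1.99 and 1.82 with NC siRNA, 2.26, 2.32 and 2.37 with SFRP2 siRNA and 6.28, 5.16 and 5.41 with RAB6A siRNA. It rose by 1.48 (SE 0.10, limma adjusted p = 9.49e-06), and 1361 of the 12712 genes tested had a higher value. Ago4, the remaining paralogue, had a low mean FPKM of 0.538 ± 0.128 (SD, n = 3) with NC siRNA and 1.49 ± 0.143 with RAB6A siRNA, a log2 fold change of 1.34 (SE 0.20, limma adjusted p = 0.000524).

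**Figure D2:**
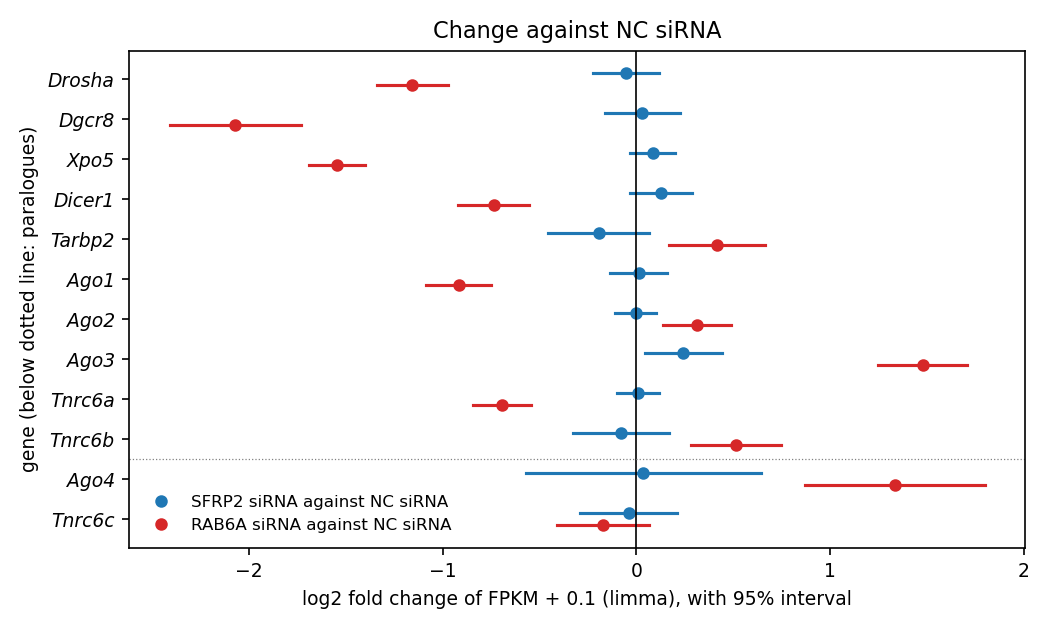
Log2 fold change against NC siRNA with its 95% interval from limma, for the 10 genes and, below the dotted line, the paralogues Ago4 and Tnrc6c. The SFRP2 siRNA intervals cover 0 except for Ago3, and the RAB6A siRNA intervals of all 10 members lie away from 0, from -2.07 for Dgcr8 to 1.48 for Ago3.

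Ago3, Ago1 and Ago4 lie one after another on the minus strand of chromosome 4 (chr4:126331704-126533472, GRCm38), within 201.8 kb. Ago3 and Ago1 are 5.46 kb apart with no annotated gene between them, and Ago1 and Ago4 are 21.0 kb apart with 2 annotated genes between them, Gm12929 and Gm12928. The middle gene fell and both outer genes rose with RAB6A siRNA. The map of these neighbours gives the values beside the positions. The ratio of Ago3 to Ago1 FPKM was 0.230 ± 0.0168 (SD, n = 3) with NC siRNA, 0.272 ± 0.0151 with SFRP2 siRNA and 1.27 ± 0.223 with RAB6A siRNA, so that Ago3 overtook Ago1 in each RAB6A siRNA library.

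**Figure D3:**
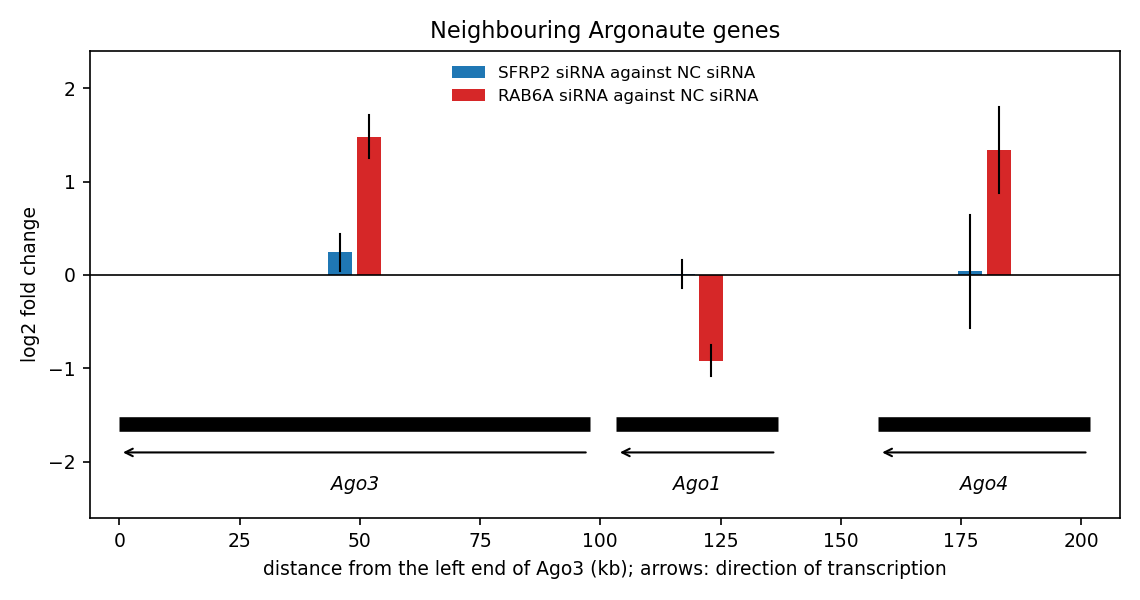
Ago3, Ago1 and Ago4 drawn to scale along the chromosome (black bars, distance in kb from the left end of Ago3, arrows in the direction of transcription), with the log2 fold change of each gene against NC siRNA as coloured bars and its 95% interval as a line. With RAB6A siRNA, Ago1 lies at -0.92 between Ago3 at 1.48 and Ago4 at 1.34.

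Ago2 was the largest part of the Argonaute family in every group. It made up 61.4% ± 0.675 (SD, n = 3) of the summed FPKM of Ago1 to Ago4 with NC siRNA, 60.3% ± 0.908 with SFRP2 siRNA and 65.2% ± 2.59 with RAB6A siRNA. The share of Ago1 was 29.9% ± 0.614, 29.7% ± 0.831 and 13.4% ± 1.12 in the same order, and that of Ago3 was 6.86% ± 0.366, 8.06% ± 0.243 and 16.9% ± 2.12. Ago4 made up 1.90% ± 0.449, 1.91% ± 0.271 and 4.52% ± 0.655. The summed FPKM of the 4 genes was 28.3 ± 0.351 with NC siRNA, 28.8 ± 1.13 with SFRP2 siRNA and 33.3 ± 1.80 with RAB6A siRNA. Set against the dicing step, the ratio of Ago2 to Dicer1 was 3.36 ± 0.157, 3.07 ± 0.134 and 7.06 ± 0.326. These shares and ratios follow from the levels above and are given as a description.

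Tnrc6a, the GW182 gene with the highest FPKM here, had FPKM of 11.7, 11.1 and 11.3 with NC siRNA, 11.6, 11.4 and 11.4 with SFRP2 siRNA and 7.14, 6.59 and 7.30 with RAB6A siRNA. It fell by 0.69 on the log2 scale (SE 0.06, limma adjusted p = 4.45e-05). Tnrc6b, a second GW182 protein, had FPKM of 1.89, 1.72 and 1.65 with NC siRNA, 1.78, 1.63 and 1.55 with SFRP2 siRNA and 2.71, 2.43 and 2.51 with RAB6A siRNA. It rose by 0.51 (SE 0.10, limma adjusted p = 0.00212), and its RAB6A siRNA libraries lay above all others. Tnrc6c, the third paralogue, had a mean FPKM of 2.20 ± 0.146 (SD, n = 3) with NC siRNA and 1.95 ± 0.141 with RAB6A siRNA, with a log2 fold change of -0.17 (95% interval -0.41 to 0.07, limma adjusted p = 0.163). The share of Tnrc6a in the FPKM of the family was 74.2% ± 0.923 with NC siRNA, 75.1% ± 0.919 with SFRP2 siRNA and 60.9% ± 1.47 with RAB6A siRNA. That of Tnrc6b was 11.4% ± 0.468, 10.8% ± 0.705 and 22.2% ± 0.625.

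**Figure D4:**
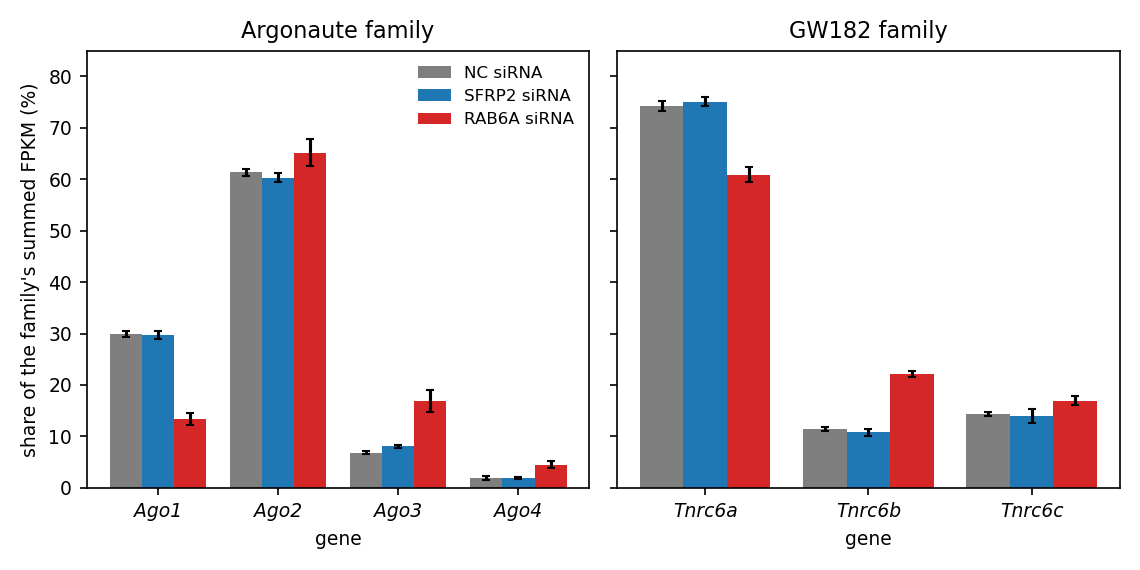
Share of each paralogue in the summed FPKM of its family (%), with bars for group means and lines for the SD of 3 libraries. With RAB6A siRNA the share of Ago1 is 13.4% and that of Ago3 16.9%, and the share of Tnrc6a is 60.9% against 74.2% with NC siRNA.

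With SFRP2 siRNA, 0 of 10 members passed the test against NC siRNA, where 0% of 12017 genes were called by limma and the smallest adjusted p of any gene was 0.140. The log2 fold changes of the members ran from -0.19 (Tarbp2) to 0.24 (Ago3), with a median of 0.01 against -0.01 for all genes. At an unadjusted p under 0.05 there was 1 member, Ago3, against 18.5% of all genes. The groups did not overlap for 2 members, Ago3 and Xpo5, both higher with SFRP2 siRNA, against 24.7% of all genes. For Ago3 the log2 fold change was 0.24 (95% interval 0.04 to 0.44, limma adjusted p = 0.214), and for Xpo5 it was 0.08 (95% interval -0.03 to 0.20, limma adjusted p = 0.382). Tarbp2, at -0.19, had the interval -0.46 to 0.07 (limma adjusted p = 0.373). The intervals of Ago2 (-0.11 to 0.10) and Tnrc6a (-0.10 to 0.12) were the narrowest and that of Tarbp2 was the widest.

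In this comparison the log2 fold changes of all genes moved with GC content, with a Spearman correlation across 11903 genes of -0.48, against 0.08 in the comparison of RAB6A siRNA with NC siRNA. Genes are not independent replicates, and the correlation is a description. Ago3 has the lowest GC content of the members, 41.8%, and Tarbp2 the highest, 54.1%, each taken in the longest annotated transcript of the gene. After correction for GC content and length, Ago3 was at 0.11 (limma adjusted p = 0.583) and Tarbp2 at -0.11 (limma adjusted p = 0.683), while Xpo5, with 50.4% GC, was at 0.11 (limma adjusted p = 0.352). In the comparison of RAB6A siRNA with NC siRNA the same correction left all 10 members called, with Dgcr8 at -1.78, Xpo5 at -1.26, Drosha at -0.89 and Ago3 at 1.62.

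The RAB6A siRNA and SFRP2 siRNA groups were also compared directly, which tests whether the effects of the targeting siRNAs differed. All 10 members were called by limma, 4 higher and 6 lower with RAB6A siRNA, against 73.4% of 12764 genes called, 37.6% higher and 35.8% lower. The log2 fold changes ran from -2.10 (Dgcr8, SE 0.15, limma adjusted p = 1.89e-05) to 1.24 (Ago3, SE 0.09, limma adjusted p = 2.44e-05). Tarbp2 was at 0.61 and Ago2, again the smallest, at 0.32 (limma adjusted p = 0.00696). With libraries scaled to the same FPKM sum, Ago2 was at 0.17 here too (limma adjusted p = 0.104) and was not called. This comparison shares the RAB6A siRNA libraries with the one against NC siRNA.

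The pathway around the 10 genes was described with lists of 106 other genes, of which 101 passed the filter in each comparison with NC siRNA. The sets differed: Smad3 passed only with RAB6A siRNA and Trim65 only with SFRP2 siRNA. The mean FPKM of Trim65 was 0.607 with NC siRNA and 0.113 with RAB6A siRNA. With RAB6A siRNA 20 of 101 rose and 55 fell, 74.3% in all, with a median log2 fold change of -0.38. Of all genes 74.1% were called, 37.6% higher and 36.5% lower, with a median of 0.03. The counts of each list given below are to be read against these shares. With SFRP2 siRNA 0 of 101 were called and the median was 0.02. Among the 16 other genes of nuclear processing and export, 13 fell and 2 rose, with a median of -0.55. Srrt, which hands capped primary transcripts to the Microprocessor, was at 48.3 ± 0.531 FPKM (SD, n = 3) with NC siRNA and 16.7 ± 1.14 with RAB6A siRNA, a log2 fold change of -1.53. Hnrnpa2b1, an RNA-binding protein that aids Dgcr8, fell by 1.41 and Erh, a small cofactor of Dgcr8, fell by 1.30. The genes that rose were Smad3, a signal transducer that binds the Drosha complex (1.38), and Ddx17, a helicase of the Microprocessor (0.69). Smad3 was low, at 0.354 ± 0.124 FPKM (SD, n = 3) with NC siRNA and 1.07 ± 0.229 with RAB6A siRNA. It was the 1 gene of the 101 tested with RAB6A siRNA that had an NC siRNA mean under the filter. Smad3 was thus tested only through the group in which it was high.

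Of the 16 other genes of dicing and loading, 10 fell and 3 rose, with a median of -0.47. The RNA helicase Dhx9 fell by 1.42, and the chaperones of Argonaute loading Ptges3 and Hsp90aa1 fell by 1.08 and 1.04. Those that rose were Prkra, the other double-stranded RNA-binding partner of Dicer1, from 3.53 ± 0.271 FPKM (SD, n = 3) to 8.93 ± 1.07 (log2 fold change 1.31), the Argonaute-associated helicase Mov10 (0.74) and the chaperone Hspa8 (0.44). Both partners of Dicer1, Tarbp2 and Prkra, were therefore higher while Dicer1 was lower. Of 11 tested regulators of Argonaute, 4 fell and 2 rose (median -0.06). Ipo8, an importin that binds Argonautes, fell by 1.27, Limd1, a scaffold of the silencing complex, by 0.74, and Ankrd52, a subunit of a phosphatase that acts on Ago2, by 0.70. P4hb, a subunit of prolyl 4-hydroxylase, rose by 0.79.

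Downstream of the GW182 proteins, 11 of 20 deadenylation genes fell and 6 rose (median -0.41). The poly(A)-binding protein gene Pabpc4 fell by 1.37, Tob2, an adaptor of the deadenylase, by 1.24 and Cnot9, the CCR4-NOT subunit that docks GW182 proteins, by 1.02. The adaptors Tob1, Btg3 and Btg1 rose by 1.04, 0.99 and 0.81. Of 22 decapping and decay genes, 11 fell and 2 rose (median -0.20), with Ddx6, the helicase that links CCR4-NOT to decapping, at a log2 fold change of -1.39 and Lsm2 and Lsm3, subunits of the Lsm ring that promotes decapping, at -0.92 and -0.88. Gigyf1, a translational repressor, and Dcp1b, a decapping cofactor, rose by 0.47 and 0.35. Of 14 tested genes of small RNA trimming, tailing and turnover, 6 fell and 4 rose (median -0.20). Lin28b, which blocks let-7 processing, the exonuclease Dis3l2 and the uridyltransferase Tut4 rose by 0.79, 0.76 and 0.28, and the nucleases Eri2, Xrn2 and Pnpt1 fell by 0.75, 0.72 and 0.64. Each of these named genes had an adjusted p from limma of at most 0.0185 (Dcp1b) and groups that did not overlap.

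**Figure D5:**
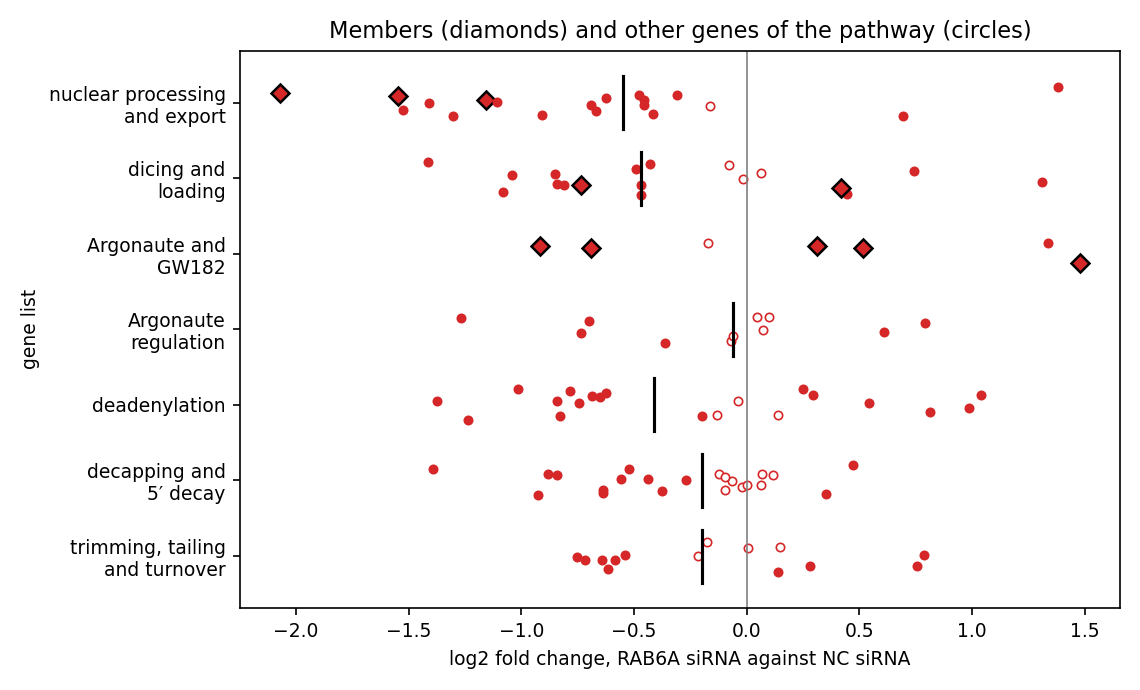
Log2 fold change with RAB6A siRNA against NC siRNA for the members (diamonds) and the other tested genes of each pathway list (circles), filled where the adjusted p from limma is under 0.05. Black lines are the medians of the other genes in a list, not drawn for the pair Ago4 and Tnrc6c. In nuclear processing and export all 3 diamonds and 13 of the 16 circles are filled and lie below 0, while the Argonaute and GW182 row spreads to both sides.

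The substrates of the machinery were seen only through the host transcripts from which microRNAs are cut. Of 7 rows named as microRNA host genes, 5 were tested in RAB6A siRNA against NC siRNA, and 3 fell and 1 rose. This count is read against the 74.1% of all 12712 genes called in that comparison. With SFRP2 siRNA 0 of the tested hosts were called. Mir17hg, the host of the miR-17-92 cluster, had FPKM of 4.10, 3.69 and 2.73 with NC siRNA, 4.47, 4.10 and 3.74 with SFRP2 siRNA and 0.156, 0.254 and 0.2504 with RAB6A siRNA, where it rested on 20 to 34 reads. Its log2 fold change was -3.49 (SE 0.22, limma adjusted p = 7.54e-06). Mir22hg had a mean FPKM of 8.61 ± 0.262 (SD, n = 3) with NC siRNA and 2.42 ± 0.411 with RAB6A siRNA, a log2 fold change of -1.80 (limma adjusted p = 9.49e-06). Mir142hg was at -0.41 (limma adjusted p = 0.0299) and Mir99ahg, at low FPKM of 0.283 ± 0.0331 and 0.718 ± 0.149, at 1.08 (limma adjusted p = 0.00715). Mir99ahg passed the filter only through the RAB6A siRNA group and Mir17hg only through the NC siRNA group, each the group in which it was high. Mir155hg, the host of the microRNA known for its induction by LPS, was the most abundant host at 173.9 ± 19.6 FPKM with NC siRNA, 145.0 ± 4.97 with SFRP2 siRNA and 160.5 ± 7.58 with RAB6A siRNA. Its log2 fold change with RAB6A siRNA was -0.11 (95% interval -0.32 to 0.10, limma adjusted p = 0.302).

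Mature microRNAs of Mir17hg, Mir22hg, Mir142hg and Mir155hg are shown with the seed in capitals, from RefSeq on GRCm38.p6, since the seed sets which messenger RNAs the machinery would be led to. The members of the miR-17-92 cluster fall into groups that share a seed.
mmu-miR-17-5p: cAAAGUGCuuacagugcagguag
mmu-miR-20a-5p: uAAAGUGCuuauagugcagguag
mmu-miR-18a-5p: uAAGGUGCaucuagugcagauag
mmu-miR-19a-3p: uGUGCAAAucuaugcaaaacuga
mmu-miR-19b-3p: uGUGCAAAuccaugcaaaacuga
mmu-miR-92a-3p: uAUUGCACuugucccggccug
mmu-miR-22-3p: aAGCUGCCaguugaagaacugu
mmu-miR-142a-3p: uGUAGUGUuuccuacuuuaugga
mmu-miR-155-5p: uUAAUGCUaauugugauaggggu
miR-17-5p and miR-20a-5p share the seed AAAGUGC, and miR-19a-3p and miR-19b-3p share GUGCAAA. The levels of these microRNAs were not measured, and the values above are those of the host transcripts alone.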

How the data were processed

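RNA-seq of RAW264.7 cells was re-analysed for 9 libraries, 3 in each of 3 groups taken from the labels. The authors deposited FPKM per Ensembl gene, that is, reads scaled to gene length and library size. The submitters' processing notes name HISAT2, Subread and featureCounts without versions. The genome build, the annotation and the strand setting are not given in the sources used here. Of 28137 identifiers, 27533 were named from GENCODE M21 (GRCm38) and 604 were not. FPKM multiplied by exonic length gave whole multiples of a single step per library for 27084 genes (98.4% of those named, within 0.03 of a read in all 9 libraries). These reads served to state depth and in 1 alternative. The intervals given reflect the spread between libraries.

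Log2(FPKM + 0.1) was tested with limma 3.58.1 in R 4.3.3 (eBayes with an intensity trend, Benjamini-Hochberg adjustment over all genes tested) with a filter at 0.5 FPKM, averaged over both groups of a comparison. Since the deposited values are not counts, the count model named in the study's methods was not the main test, and the recovered reads were tested with voom instead. Genes were called at an adjusted p under 0.05, and DEGs also at an absolute log2 fold change over 1. Fold changes of low genes are understated on this scale. On simulated FPKM for RAB6A siRNA against NC siRNA (11706 genes tested), limma called 192 of 196 genes changed by 1 and 15 unchanged genes. At a change of 0.5 it called 128 of 194 genes (11695 tested), and at 0.3 it called 0 of 194 (11694 tested). For SFRP2 siRNA against NC siRNA it called 144 of 197 genes changed by 0.5 (11695 tested). The simulation changed only these few genes and used a fixed value for the spread between libraries. Its rates therefore need not hold where most genes are called.

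The members and lists were chosen with earlier results of these data known. Named beside the members were the targeted genes, the remaining paralogues, microRNA host transcripts and, from each list, at most the 3 highest and 3 lowest log2 fold changes with RAB6A siRNA among genes called without overlap of the groups. Trmt2a and Chrac1 were named for their overlap with members, and Trim65 for its place at the filter. The values of 1 gene that this rule selects are not reported here. Promoters and microRNAs come from RefSeq (GRCm38.p6) and the siRNA sequences from the study. The remaining steps and plots were done in Python 3.11.15 (matplotlib 3.10.9, pandas 2.3.3, numpy 2.4.6). Alternatives were the pseudocounts 1 and 0.01, no filter or a filter at 1 FPKM, quantile normalization, median-of-ratios scaling, no intensity trend, the replicate number as a block, a single fit of all 9 libraries, a correction for GC content and length by splines with 5 degrees of freedom (also with the block), voom on the recovered reads, each library left out in turn and, chosen after seeing the data, the same FPKM sum in each library.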

Additional observations from a re-analysis of the deposited data

How the results depend on the processing

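With RAB6A siRNA, all 10 members kept their direction against NC siRNA and against SFRP2 siRNA under 19 alternatives, and all calls held except that of Ago2 with the same FPKM sum in each library (0.17 in both comparisons). Between 3 and 6 members passed the fold threshold of a DEG: Drosha did not after GC and length correction, at -0.89 against NC siRNA and -0.90 against SFRP2 siRNA. Dgcr8 stayed past it but was at -1.43 and -1.46 with a pseudocount of 1, which pulls low genes towards 0. Ago3 against SFRP2 siRNA was at 0.99 at its lowest, also short of the threshold. Other members passed the threshold only under an alternative. Ago1 reached -1.06 against NC siRNA and -1.07 against SFRP2 siRNA, and Dicer1 reached -1.01 against SFRP2 siRNA. With a pseudocount of 1, DEGs numbered 2389 against NC siRNA (3829 as reported) and 2501 against SFRP2 siRNA (3972 as reported), and the cause was not tested. In SFRP2 siRNA against NC siRNA, 0 members were called under any alternative. Voom called 41 genes and 2 DEGs there. Leaving out 1 library gave 0 to 1 genes called and 0 to 1 DEGs, with the 1 found without NC siRNA replicate 1. Small changes of members with SFRP2 siRNA turned direction: Ago2 was at 0.0036 with median-of-ratios scaling and at 0.0012 with quantile normalization, and Tnrc6a was at -0.0368 after GC and length correction with or without the block. With 1 library left out, the log2 fold change ran from -0.0398 to 0.0524 for Ago1, from -0.0217 to 0.0122 for Ago2, from -0.12 to 0.0023 for Drosha, from -0.0307 to 0.0683 for Dgcr8 and from -0.0050 to 0.0288 for Tnrc6a. The cause was not tested.

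The labels number the replicates 1 to 3 in each group, and same-numbered libraries did not deviate together (correlation -0.085 to 0.048). With the replicate block, 0, 9103 and 9159 genes and 0, 10 and 10 members were called in SFRP2 siRNA against NC siRNA, RAB6A siRNA against NC siRNA and RAB6A siRNA against SFRP2 siRNA. In the simulated data for SFRP2 siRNA against NC siRNA, limma called 0 of 200 genes changed by 0.3 on the log2 scale (11702 tested). Only those genes were changed there, with a fixed value for the spread between libraries, so that this limit need not hold for the data. In RAB6A siRNA against NC siRNA, where most genes were called, Ago2 was called at 0.31. Small changes of members with SFRP2 siRNA cannot be told from none here.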
